A study of Homo sapiens with 48 samples.

Results

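The 48 genes described here encode proteins of G2 phase and mitosis, and were compared across 16 groups of THP-1 libraries. They were taken as a list of gene symbols covering mitotic entry, the spindle checkpoint, the centromere and kinetochore, mitotic kinesins, spindle assembly, cytokinesis and chromosome structure. All 48 symbols were present among the 24462 symbols of the count files, each on a single row, and all 48 passed the filter on low counts.

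Transcripts of these genes accumulate late in the cell cycle. During G0 and G1 their promoters are held silent by the DREAM complex, and in G2 they are activated by B-MYB with the MuvB core and by FOXM1, through DNA elements that include the cell cycle genes homology region (CHR) and CCAAT boxes bound by NF-Y. In bulk RNA of a dividing line such as THP-1, fewer cells in G2 or mitosis and less of these RNAs per cell cannot be told apart.

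THP-1 is a human monocytic leukemia line, used here at passages 11 to 15, and RNA was taken after 12 h and sequenced from its 3' ends with a QuantSeq kit. The labels state the dose of each of the 12 chemicals only as CV90, which by common usage means a concentration at which most cells stay viable; the amounts were not known here. The treated groups were ribavirin and aciclovir (nucleoside analogues), mercuric chloride, tofacitinib (a JAK inhibitor), dexamethasone and prednisolone (glucocorticoids), cyclosporine and tacrolimus (calcineurin inhibitors), LPS (bacterial lipopolysaccharide), genistein (an isoflavone), benzoic acid and sodium lauryl sulfate. They were set against DMSO vehicle libraries of series 2 and series 1, and untreated libraries of series 2 and series 1. Each of the 16 groups has 3 libraries. The vehicle is stated as 0.1% DMSO in the protocol, while the titles give 0.4, 0.5 and 0.6% for the series 2 vehicle libraries and 0.1, 0.2 and 0.3% for those of series 1. The labels do not say which control series belongs to which treatment, so every treatment was tested against both. Whether libraries of a group are separate cultures is not stated, so a p-value reflects library-to-library spread that may be technical.

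Total counts ran from 5952817 to 11496950 per library. Mercuric chloride libraries were the shallowest as a group, with a mean of 6.41 mega-counts, and held counts in 18748 symbols on average, against 16310 to 16945 in the other 15 groups. Monocytic markers summed to 2190 to 3490 CPM (counts scaled to library size), led by CTSG and CEBPA, although CD14 reached only 6.25 CPM and MPO 6.15 CPM. The defining T cell gene CD3E and the B cell gene BLK had 0 counts in every library. Dexamethasone replicate 3 stood apart for several of the mitotic genes. It held counts in 15527 symbols, the fewest of any library, against 16561 and 16843 in dexamethasone replicates 1 and 2. Benzoic acid libraries were widely spread for MKI67 (275 ± 81.1 CPM, SD, n = 3), with replicate 3 the highest. Replicate 3 also stood apart for other genes. In replicates 1, 2 and 3, CENPE had 219, 216 and 324 CPM and CENPF 814, 763 and 1108 CPM, while CDC20 went the other way with 805, 816 and 598 CPM.

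To show the elements these genes share, promoter windows from RefSeq (GRCh38.p14, 250 bases before to 50 after each start) were searched on both strands for the CHR letters TTTGAA and TTTAAA and for CCAAT. Windows were found for 42 of the 48 genes. TTTGAA or TTTAAA was present for 36 of these 42 genes (85.7%), against 7605 of 27305 genes in the table (27.9%) and 22.4% of the 11134 genes with a window that were tested here. TTTGAA alone was present for 30 of 42 (71.4%, against 18.2%), TTTAAA alone for 16 (38.1%, against 14.5%), and CCAAT for 34 (81%, against 39.7%). TTTAAA reads the same on both strands, and a CCAAT match can overlap its own reverse complement, as it does in the HMMR promoter. A match describes letters and is not a measured binding site.

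The 120 bases before the start are shown for 6 genes that fell with aciclovir, because they hold the CHR letters, with CCAAT letters as well in all but CENPE. Capitals mark both CHR forms and the CCAAT box, on either strand. The stretches lie at chr5:163460512-163460631 (HMMR, plus strand), chr4:103198344-103198463 (CENPE, minus strand), chr16:23678769-23678888 (PLK1, plus strand), chr5:69167030-69167149 (CCNB1, plus strand), chr15:59105026-59105145 (CCNB2, plus strand) and chr1:43358861-43358980 (CDC20, plus strand), all in GRCh38.p14, whereas the counts were made on hg19.
HMMR: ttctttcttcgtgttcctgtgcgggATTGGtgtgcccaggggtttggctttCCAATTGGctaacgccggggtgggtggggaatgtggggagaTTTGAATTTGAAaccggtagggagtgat
CENPE: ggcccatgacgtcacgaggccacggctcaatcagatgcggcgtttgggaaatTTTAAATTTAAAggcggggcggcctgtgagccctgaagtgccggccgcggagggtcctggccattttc
PLK1: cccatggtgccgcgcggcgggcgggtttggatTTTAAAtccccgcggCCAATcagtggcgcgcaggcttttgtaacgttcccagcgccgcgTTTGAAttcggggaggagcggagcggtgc
CCNB1: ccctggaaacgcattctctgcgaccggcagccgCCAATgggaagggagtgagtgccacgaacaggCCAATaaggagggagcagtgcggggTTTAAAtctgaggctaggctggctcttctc
CCNB2: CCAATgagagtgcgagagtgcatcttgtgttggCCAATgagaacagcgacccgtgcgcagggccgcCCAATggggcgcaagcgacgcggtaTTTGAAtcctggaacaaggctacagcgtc
CDC20: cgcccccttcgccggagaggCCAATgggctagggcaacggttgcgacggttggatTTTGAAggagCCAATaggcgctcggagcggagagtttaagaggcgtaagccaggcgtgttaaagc
In HMMR and CENPE the CHR letters stand as a direct repeat with no base between the copies. Among the genes that fell with aciclovir, 14 of 15 with a window held either CHR form, and among the genes not called there 22 of 27 did.

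The mitotic genes differed between the control series, and this difference stands beside every treatment value below. Of the 48 genes, 27 were higher and 1 was lower in series 2 than in series 1, with vehicle and untreated libraries pooled (edgeR quasi-likelihood test, adjusted p under 0.05). Over all 15642 genes tested, 15% were called higher and 15.2% lower. The median log2 difference was 0.24 over the 48 genes and -0.03 over all genes.

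MKI67, which encodes the proliferation antigen Ki-67, had 481, 479 and 490 CPM in series 2 vehicle libraries and 493, 462 and 451 CPM in series 2 untreated libraries, against 212, 203 and 201 CPM in series 1 vehicle libraries and 263, 229 and 225 CPM in series 1 untreated libraries. All 6 series 2 libraries lay above all 6 series 1 libraries (log2 1.10, SE 0.08, adjusted p = 3.81e-14). KIF11, the motor that pushes spindle poles apart, had 45.2, 47.4 and 43.4 CPM in series 2 vehicle libraries, against 23.7, 24.1 and 22.6 CPM in series 1 vehicle libraries (log2 0.89, SE 0.09). NDC80, a microtubule-binding subunit of the outer kinetochore, had 79.8, 81.5 and 88.9 CPM in series 2 vehicle libraries, against 46, 48.3 and 41.6 CPM in series 1 vehicle libraries (log2 0.75, SE 0.11). FOXM1, the transcription factor that activates many of these genes, had 51.9, 48.1 and 48.8 CPM in series 2 vehicle libraries, against 33, 33.3 and 25.3 CPM in series 1 vehicle libraries (log2 0.73, SE 0.11). For each of these genes the series 2 vehicle libraries lay above the series 1 vehicle libraries with no overlap.

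CDK1, the kinase that drives entry into mitosis, had 124, 133 and 121 CPM in series 2 vehicle libraries, against 77.2, 72.7 and 71.8 CPM in series 1 vehicle libraries (log2 0.72, SE 0.07). Its partner CCNB1 (cyclin B1) went the other way, with 118, 118 and 115 CPM in series 2 vehicle libraries, against 123, 123 and 123 CPM in series 1 vehicle libraries (log2 -0.18, SE 0.06, adjusted p = 0.0125). Without untreated series 1 replicate 1 CCNB1 was not called, at -0.15. Spindle assembly genes took part most fully, with 8 of 9 higher, among them HMMR (0.59), PRC1 (0.55) and ASPM (0.42). Of the 7 checkpoint and anaphase genes, BUB1B (0.26) and BUB1 (0.26) were called higher. Vehicle and untreated libraries differed for 0 of the 48 genes by edgeR and by DESeq2, with 1 at an unadjusted p under 0.05, where 0% of all genes were called. The difference between vehicle and untreated was unequal in series 2 and series 1 for 0 of 48 genes by edgeR and by DESeq2, with 3 at an unadjusted p under 0.05 and again 0% of all genes called.

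**Figure D1:**
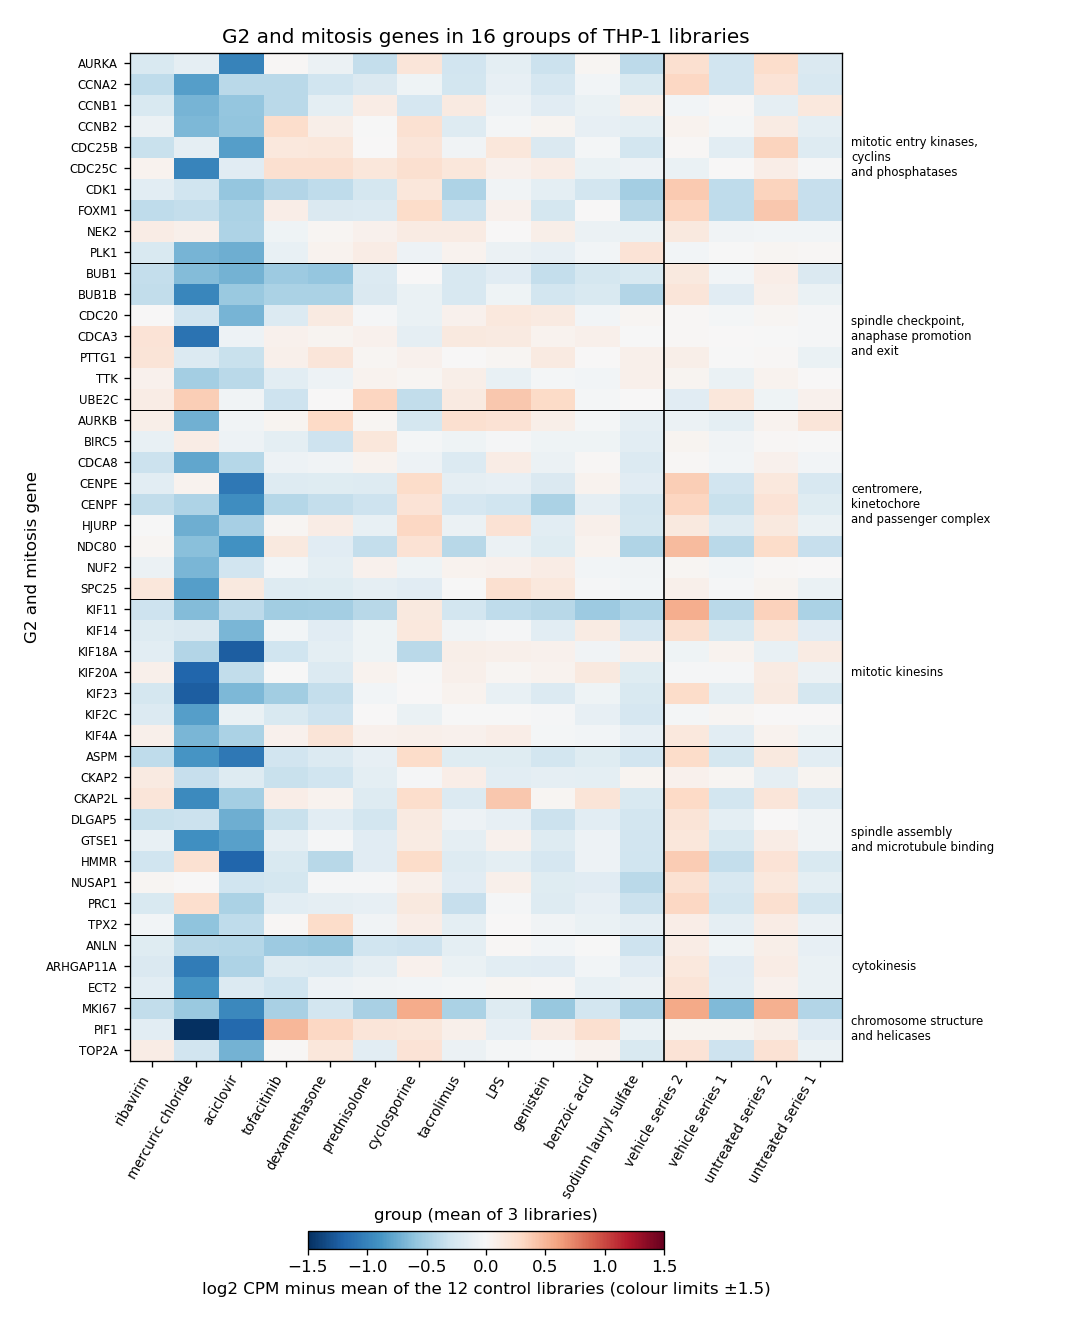
Mean log2 CPM of each of the 48 genes (rows, by role) in each of 16 groups (columns, 3 libraries each) minus the mean of the 12 control libraries; blue is lower, red is higher, and the vertical line separates treatments from controls. The bluest columns are mercuric chloride and aciclovir, and the series 2 control columns are redder than those of series 1.

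Aciclovir lowered mitotic genes, while few other genes were called when both vehicle series were required. Of the 48 genes, 16 fell and 0 rose, against 0.166% of all genes called lower and 0.0703% called higher. The median log2 change was -0.50 over the 48 genes and 0.00 over all genes, and 46 of 48 values were negative. Over the 48 genes the median was -0.70 against series 2 and -0.34 against series 1. Over all genes 26 fell, of which 16 are among the 48 and 4 are on a list of other G2 and mitosis genes. A further pair, ERN2 (log2 -0.68) and HMMR-AS1 (-1.28), overlap PLK1 and HMMR on the opposite strand. Since the genes were listed with earlier results of these data known, these counts are a description.

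HMMR, a spindle-associated hyaluronan receptor, had 51.3, 56.2 and 48 CPM with aciclovir, against 160, 159 and 146 CPM in vehicle series 2 and 90.4, 96.3 and 90.1 CPM in vehicle series 1 (log2 -1.21, SE 0.10, adjusted p = 5.56e-06). CENPE, the kinesin that carries chromosomes to the spindle equator, had 108, 122 and 112 CPM with aciclovir, against 307, 319 and 308 CPM in vehicle series 2 and 202, 199 and 189 CPM in vehicle series 1 (log2 -1.12, SE 0.10, adjusted p = 7.11e-06). ASPM, which holds microtubule ends at spindle poles, had 151, 155 and 143 CPM with aciclovir, against 384, 372 and 386 CPM in vehicle series 2 and 273, 267 and 247 CPM in vehicle series 1 (log2 -1.08, SE 0.08, adjusted p = 1.14e-07). In all of these every aciclovir library lay below all 6 vehicle libraries. PIF1, a DNA helicase, had 3.15, 6.87 and 7.21 CPM with aciclovir, against 13.9, 12.1 and 12.6 CPM in vehicle series 2 and 13.7, 10.5 and 14.7 CPM in vehicle series 1 (log2 -1.17, SE 0.18, adjusted p = 0.000578). Its aciclovir libraries were also the lower ones throughout, at levels near which single reads weigh more.

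Of the 10 mitotic entry genes 5 fell. AURKA, a kinase of centrosome maturation, had 71.3, 76.8 and 68.8 CPM with aciclovir, against 168, 166 and 178 CPM in vehicle series 2 and 125, 121 and 112 CPM in vehicle series 1 (log2 -0.98, SE 0.10). PLK1, the polo-like kinase of mitotic entry, had 127, 116 and 110 CPM with aciclovir, against 194, 186 and 188 CPM in vehicle series 2 and 196, 192 and 193 CPM in vehicle series 1 (log2 -0.70, SE 0.08). CCNB1 had 82.9, 78.6 and 80.7 CPM with aciclovir (log2 -0.57, SE 0.07), below all vehicle libraries given above. CCNB2 (-0.60) and the phosphatase CDC25B, which activates CDK1 (-0.76), completed the group. In the vehicle libraries PLK1 and CCNB1 lay close together in both series, and their changes were similar against either one: -0.69 against series 2 and -0.72 against series 1 for PLK1, and -0.54 and -0.60 for CCNB1.

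For CDK1 and MKI67 the vehicle libraries themselves were split by series. CDK1 had 64.1, 66.9 and 61.5 CPM with aciclovir, below all 6 vehicle libraries, and its change was -0.97 against series 2 and -0.20 against series 1, so it was not called (adjusted p = 0.899). MKI67 had 162, 167 and 168 CPM with aciclovir, also below all 6, with -1.54 against series 2 and -0.31 against series 1 (adjusted p = 0.64). TOP2A, the topoisomerase that untangles sister chromatids, had 1388, 1319 and 1284 CPM with aciclovir, against 2489, 2509 and 2507 CPM in vehicle series 2 and 1883, 1728 and 1657 CPM in vehicle series 1 (log2 -0.66, SE 0.08, adjusted p = 0.0142).

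Of the 7 checkpoint and anaphase genes, the checkpoint kinase BUB1 (-0.75), the anaphase activator CDC20 (-0.68) and BUB1B (-0.56) fell. Of 9 spindle assembly genes 4 fell: HMMR, ASPM, GTSE1 (-0.78) and DLGAP5 (-0.76). Of 9 centromere and passenger genes, CENPE and CENPF (-0.92) fell. CENPE, itself a kinesin, was counted in that role and not among the mitotic kinesins. None of the 7 mitotic kinesins and none of the 3 cytokinesis genes was called, although KIF18A, which dampens chromosome oscillation, had 4.91, 2.19 and 5.81 CPM with aciclovir, against 9.28, 9 and 9.51 CPM in vehicle series 2 and 9.99, 10.2 and 9.88 CPM in vehicle series 1 (log2 -1.16, adjusted p = 0.0569). Several mitotic genes stayed near vehicle: AURKB, the kinase of the chromosomal passenger complex (log2 0.07, 95% interval -0.17 to 0.30), SPC25 (0.11, -0.12 to 0.34), UBE2C (-0.05, -0.31 to 0.22), BIRC5 or survivin (-0.07, -0.21 to 0.08), CDCA3 (-0.09, -0.31 to 0.13) and KIF2C (-0.09, -0.30 to 0.11).

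**Figure D2:**
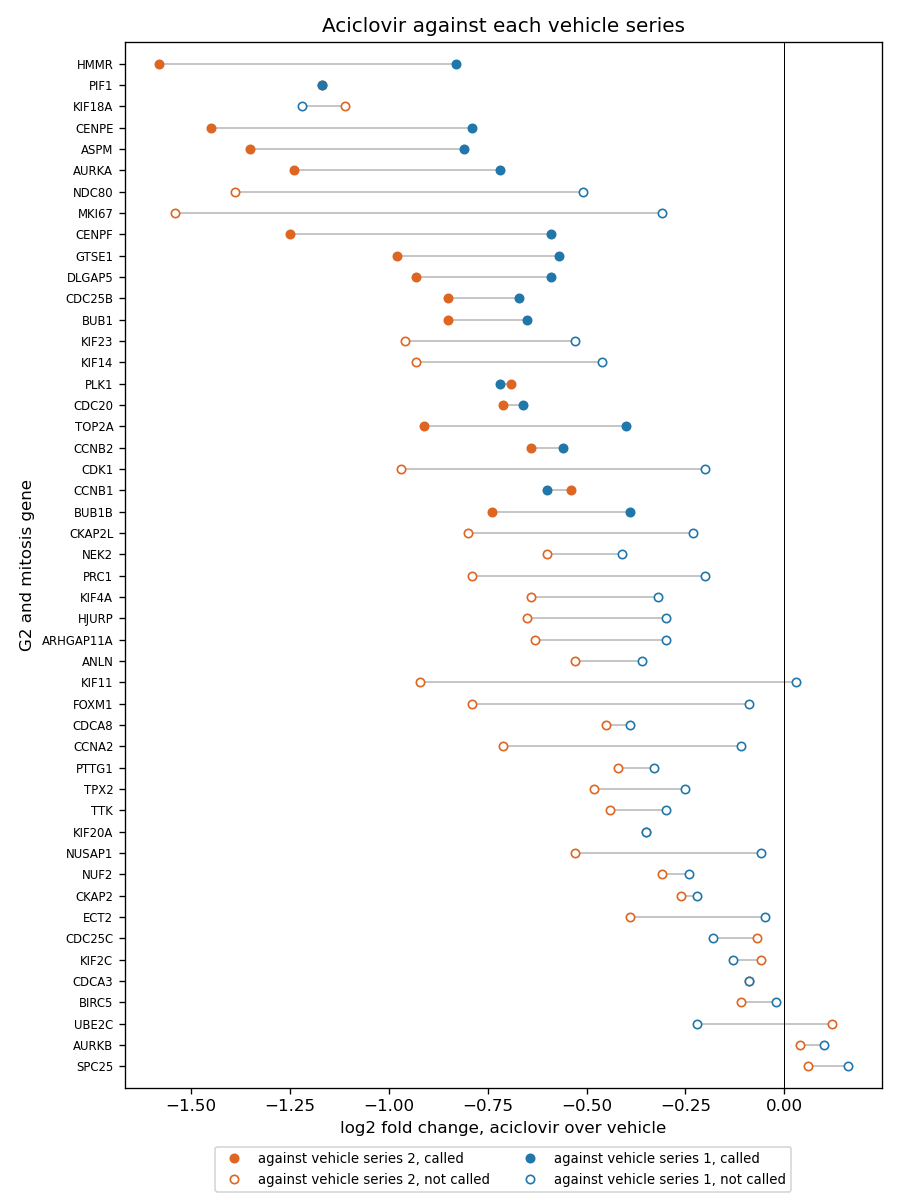
Log2 fold change of each of the 48 genes with aciclovir against vehicle series 2 (orange) and vehicle series 1 (blue), each from 3 libraries a group; filled points are the 16 genes called when both series are required. Falls against series 2 are mostly deeper, as for HMMR (-1.58 and -0.83), while PLK1 and CCNB1 lie at nearly one place for both.

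Other lists of cell cycle genes were counted in the same test. Of 50 genes of S phase and DNA replication 4 rose and 0 fell with aciclovir (median log2 0.23), namely the transcription factor E2F1 (0.75), the origin licensing factor CDT1 (0.59), the ribonucleotide reductase subunit RRM2 (0.55) and DTL (0.44). Of 66 other G2 and mitosis genes 4 fell and 2 rose (median log2 -0.28), with DEPDC1 (-0.62) and the importin KPNA2 (-0.62) lower and CENPM (0.67) higher. None of 20 DREAM, B-MYB and E2F regulators (median 0.20), 19 cell cycle brakes tested (median -0.08) and 15 anaphase-promoting complex genes (median 0.01) was called.

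Against single series, 41 of the 48 genes were lower with aciclovir than series 2, where 13.4% of all genes were, and 18 were lower than series 1, where 0.249% of all genes were. Fitting only the 9 aciclovir and vehicle libraries called 30 of the 48 genes, MKI67 among them (edgeR, adjusted p = 0.000807, with a range of 0.000807 to 1 over its alternatives). With untreated libraries in place of vehicle, 18 were called, again with MKI67 but without CDC25B and BUB1. Leaving out single libraries ended the call of CDC25B in 8 of 9 cases, of TOP2A without aciclovir replicate 2 or 3 or vehicle series 1 replicate 1 or 2, and of BUB1 without aciclovir replicate 3.

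Ribavirin, the other nucleoside analogue, was compared with aciclovir directly, although their amounts were not known and may be unequal. Of the 48 genes, 30 were higher with ribavirin and 0 lower, against 3.27% and 2.49% of all genes, and the median log2 difference was 0.43 (0.00 over all genes). CENPE had 215, 198 and 234 CPM with ribavirin, against 108, 122 and 112 CPM with aciclovir (log2 0.92, SE 0.11, adjusted p = 1.94e-07). NDC80 had 57.8, 60.2 and 65.5 CPM with ribavirin, against 33.7, 32.9 and 28.9 CPM with aciclovir (log2 0.94, SE 0.16). Both genes, like HMMR (0.90), TOP2A (0.83), AURKA (0.78) and CDC20 (0.70), showed no overlap of the groups. PIF1 had 13.1, 9.62 and 10.9 CPM with ribavirin, against 3.15, 6.87 and 7.21 CPM with aciclovir (log2 0.97, SE 0.20).

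KIF18A had 10.3, 8.34 and 7.63 CPM with ribavirin, against 4.91, 2.19 and 5.81 CPM with aciclovir (log2 1.03, SE 0.26, adjusted p = 0.0127). Its difference was not called without aciclovir replicate 2 (0.71) or without ribavirin replicate 1 (0.89). CDK1 had 99.2, 81.6 and 80.2 CPM with ribavirin, against 64.1, 66.9 and 61.5 CPM with aciclovir (log2 0.44, SE 0.10), and was not called without ribavirin replicate 1 (0.33). By role, 8 of 9 spindle assembly genes, 7 of 10 entry genes, all 3 chromosome structure genes, 4 of 7 kinesins and 3 of 7 checkpoint genes were higher with ribavirin. Of 50 S phase genes 6 were lower with ribavirin and 0 higher, led by CCNE1 (-0.57), PCNA (-0.53) and POLE (-0.43). Against vehicle, ribavirin called 0 of the 48 genes by edgeR and by DESeq2 (5 at an unadjusted p under 0.05), where 0.147% of all genes were called. Against vehicle series 2 alone 20 were lower with ribavirin and 0 higher, where 8.66% and 8.26% of all genes were, and against vehicle series 1 alone 0 were lower and 2 higher, where 1.16% and 1.52% were.

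**Figure D3:**
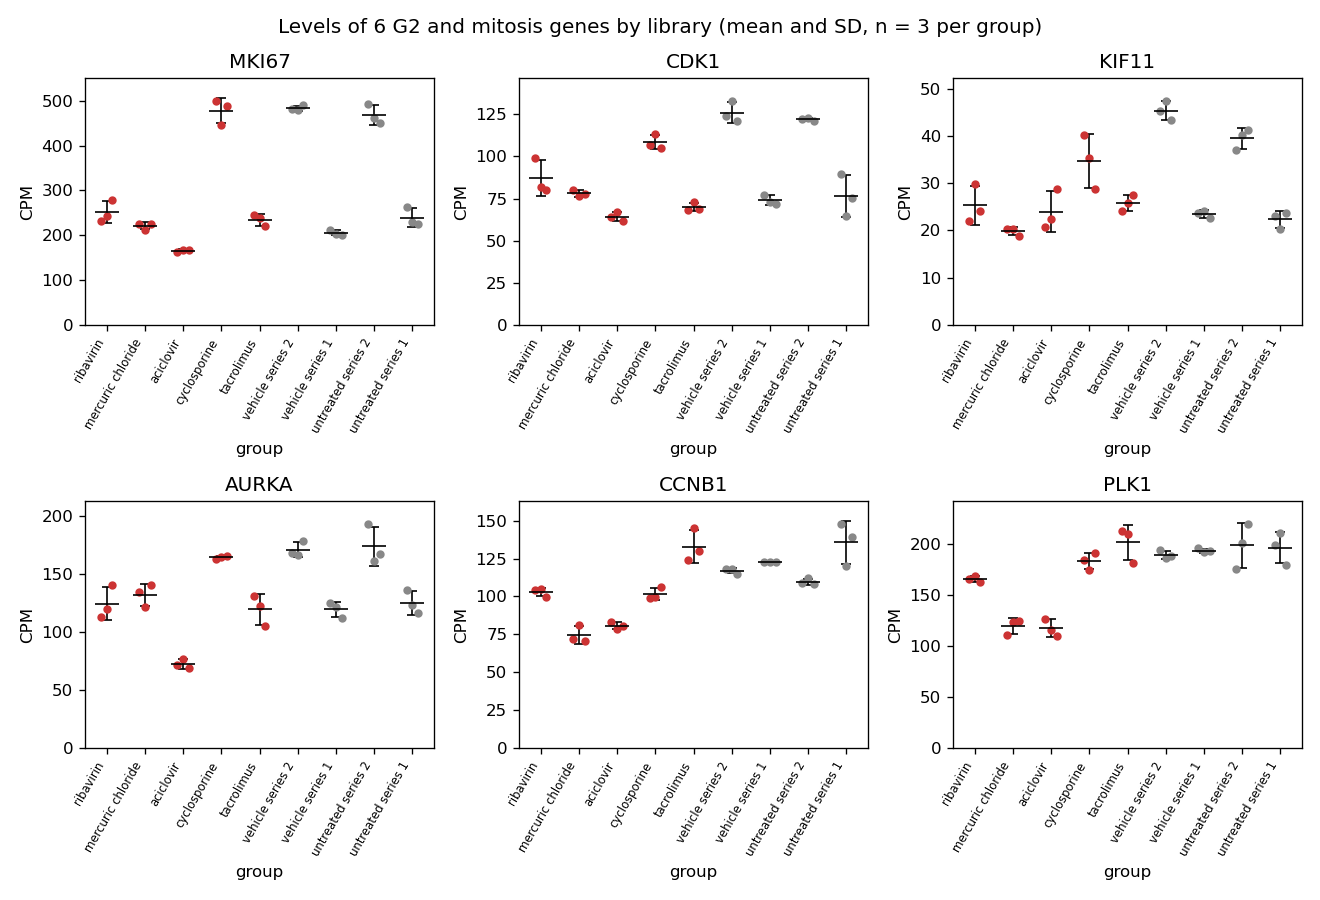
CPM of MKI67, CDK1, KIF11, AURKA, CCNB1 and PLK1 by library (points) with the group mean and SD (n = 3) in treated groups (red) and control groups (grey), on axes that start at 0. For MKI67, cyclosporine lies at the level of the series 2 controls and the libraries of the other 4 treatments shown lie between 162 and 279 CPM, against 201 to 263 CPM in series 1, while CCNB1 and PLK1 are lowest with mercuric chloride and aciclovir.

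Mercuric chloride lowered many of the 48 genes, in cells where much of the transcriptome moved. Of the 48 genes, 27 fell and 0 rose, against 20.1% of all genes called lower and 21.8% called higher. The median log2 change was -0.62 over the 48 genes and -0.01 over all genes. The scaling factors (TMM) of the mercuric chloride libraries were 0.7516, 0.7722 and 0.7663. They were 0.9855, 0.9777 and 0.9839 in vehicle series 2 and 1.029, 1.031 and 1.032 in vehicle series 1. A lower factor raises the CPM of every gene in a library, so levels with mercuric chloride relative to other groups depend on this scaling. The falls ran through every role, with 5 of 7 checkpoint genes, 4 of 7 kinesins, 5 of 9 centromere genes, 5 of 9 spindle assembly genes, 5 of 10 entry genes and 2 of 3 cytokinesis genes lower.

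PIF1 had 1.72, 3.7 and 2.89 CPM with mercuric chloride, against 13.9, 12.1 and 12.6 CPM in vehicle series 2 and 13.7, 10.5 and 14.7 CPM in vehicle series 1 (log2 -2.23, SE 0.23, adjusted p = 3.44e-10). KIF23, a kinesin of the cytokinetic midzone, had 12.3, 15.7 and 12.8 CPM with mercuric chloride, against 36.8, 41.1 and 39.2 CPM in vehicle series 2 and 31.7, 26.4 and 29.2 CPM in vehicle series 1 (log2 -1.31, SE 0.14, adjusted p = 8.81e-08). Both genes were lower in every mercuric chloride library than in any vehicle library. CDCA3, a trigger of mitotic entry, had 11.1, 11.5 and 13.8 CPM with mercuric chloride, against 25, 28.9 and 25.7 CPM in vehicle series 2 and 24.1, 26.7 and 28.4 CPM in vehicle series 1 (log2 -1.12, SE 0.13). KIF20A, a kinesin of cytokinesis, had 24.9, 22 and 30.5 CPM with mercuric chloride, against 55.8, 58.3 and 59.5 CPM in vehicle series 2 and 63.1, 56 and 53.8 CPM in vehicle series 1 (log2 -1.16, SE 0.12). These genes did not overlap between the groups either, but KIF20A shares exonic sequence with CDC23 on the opposite strand, whose counts were a median of 79.4% of its own, so its separate value is uncertain.

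The other largest falls were ARHGAP11A (-1.05), which has the near copy ARHGAP11B, BUB1B (-0.99), the mitosis-activating phosphatase CDC25C (-0.96), CKAP2L (-0.94), the cytokinesis exchange factor ECT2 (-0.91) and GTSE1 (-0.89). CCNB1 had 71.8, 81.1 and 70.4 CPM with mercuric chloride (log2 -0.69, SE 0.08) and PLK1 had 111, 124 and 125 CPM (log2 -0.67, SE 0.08), below all vehicle libraries given above. CDK1 (80.1, 76.3 and 77.8 CPM), MKI67 (226, 212 and 225 CPM), AURKA (134, 121 and 140 CPM) and TOP2A (1721, 1663 and 1991 CPM) were not called with mercuric chloride. Each of these lay below the series 2 vehicle libraries and at or near the level of the series 1 vehicle libraries.

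A group of mitotic genes was not lower with mercuric chloride at the scaling used, on which their standing against vehicle depends. HMMR had 145, 127 and 144 CPM, below the 3 series 2 vehicle libraries and above the 3 series 1 vehicle libraries, with a log2 change of -0.16 against series 2 and 0.59 against series 1. PRC1, which bundles midzone microtubules, had 221, 206 and 213 CPM, with -0.06 against series 2 and 0.53 against series 1. UBE2C, the ubiquitin-conjugating enzyme of the anaphase-promoting complex, had 108, 107 and 109 CPM, against 74.3, 79.2 and 70 CPM in vehicle series 2 and 88.3, 97.3 and 97.7 CPM in vehicle series 1, and was not called (log2 0.37, adjusted p = 0.352). CENPE (0.01), NUSAP1 (0.01), NEK2 (0.04) and BIRC5 (0.12) were also at or above the mean of the vehicle series. Against series 1 alone 28 of the 48 genes were lower and 4 higher (HMMR, PRC1, CENPE and NUSAP1), where 28.4% and 29% of all genes were. Against series 2 alone 41 were lower and 1 higher (UBE2C), where 26.2% and 26.4% of all genes were.

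Other lists of cell cycle genes were counted with mercuric chloride as well, where 20.1% of all genes were called lower and 21.8% higher. Of 50 S phase genes 34 fell and 1 rose (median log2 -0.81), led by PCNA (-1.65), MCM3 (-1.55) and MCM6 (-1.47). Of 66 other G2 and mitosis genes 37 fell and 3 rose (median -0.59), led by the separase gene ESPL1 (-2.08) and KIF18B (-1.84). Of 19 cell cycle brakes tested 13 rose and 1 fell (median 2.03), led by GADD45B (5.05), the CDK inhibitor CDKN1A (4.84) and CDKN1C (4.79). Of 15 anaphase-promoting complex genes 8 fell and 1 rose, led by ANAPC1 (-1.35), FBXO5 (-1.13) and ANAPC7 (-0.93). Of 20 DREAM, B-MYB and E2F regulators 6 fell and 3 rose, led by E2F8 (-1.56), RBL1 (-1.10) and LIN52 (1.07). These 9 of 20 regulators called are near the share of all genes called in either direction (41.9%). The mercuric chloride libraries also had the lowest depth and the most symbols detected. In these libraries 7 T cell markers summed to 33.2 to 39.8 CPM, against 2.42 to 4.36 CPM in vehicle series 2 and 3.62 to 6.22 CPM in vehicle series 1, almost all of it IL7R, with CD3D, CD3E and CD2 at 0. The 6 fibroblast markers summed to 30.5 to 33.5 CPM with mercuric chloride, mostly COL1A1 and with COL3A1 and LUM at 0, against 0.579 to 1.38 CPM in vehicle series 2 and 0.734 to 3.14 CPM in vehicle series 1. The 6 epithelial markers summed to 1.9 to 17 CPM with mercuric chloride, with none at 0, against 0.924 to 1.74 CPM in vehicle series 2 and 0.63 to 0.824 CPM in vehicle series 1. The 6 B cell markers went the other way, at 10.8 to 13.3 CPM with mercuric chloride, with BLK at 0, against 20.7 to 23 CPM in vehicle series 2 and 15.2 to 21.6 CPM in vehicle series 1. The 12 monocytic markers summed to 2190 to 2330 CPM with mercuric chloride, against 2610 to 2690 CPM in vehicle series 2 and 3310 to 3380 CPM in vehicle series 1. The part of depth and of these markers in the mitotic values was not tested.

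A direct comparison, added after the data were seen, asked whether mercuric chloride and aciclovir lowered the mitotic genes to different degrees. Of the 48 genes, 16 were higher and 16 lower with mercuric chloride than with aciclovir, against 29.9% and 28.8% of all genes. These 32 of 48 genes called are near the share of all genes called in either direction (58.7%). The median difference over the 48 genes was -0.03. HMMR (log2 1.42, SE 0.11), CENPE (1.13, SE 0.11) and AURKA (0.87, SE 0.11) were the highest of these with mercuric chloride, followed by PRC1 (0.73) and KIF18A (0.73). For HMMR, CENPE and AURKA, every mercuric chloride library lay above every aciclovir library. PIF1 (-1.06, SE 0.27), CDCA3 (-1.03, SE 0.14), SPC25 (-0.96, SE 0.15) and CDC25C (-0.84, SE 0.15) were the lowest with mercuric chloride. CDCA3 had 22.4, 24.7 and 27.5 CPM with aciclovir, which overlaps its vehicle libraries given above. KIF18A was not called without aciclovir replicate 2 (0.40) or mercuric chloride replicate 2 (0.67) or 3 (0.66). For 16 genes no difference was called, among them PLK1, BUB1, CCNB1, CCNB2 and GTSE1, which fell with both treatments.

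**Figure D4:**
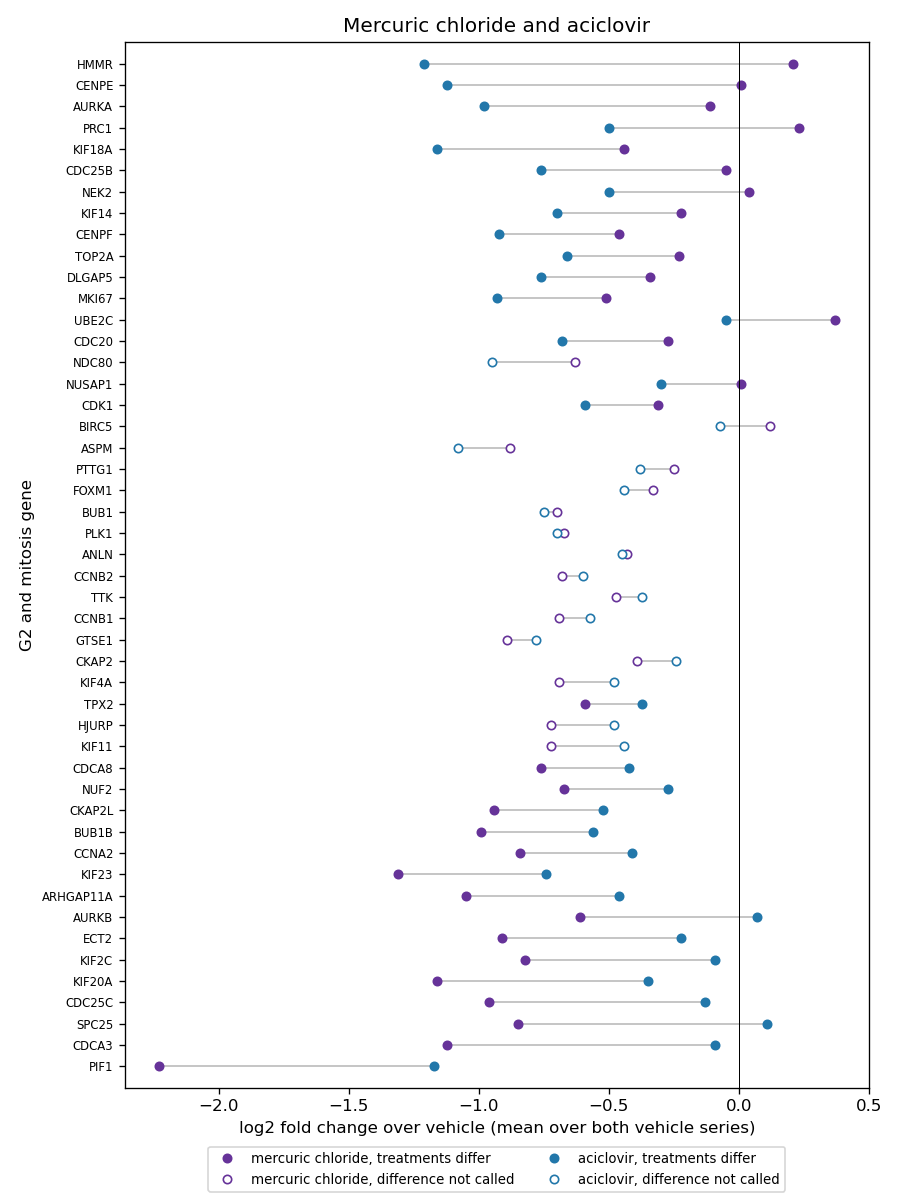
Log2 fold change over vehicle (mean of both vehicle series) of each of the 48 genes with mercuric chloride (purple) and aciclovir (blue); filled points are the 32 genes that differed between the treatments in the direct test. Among all genes tested, 58.7% differed in that test. Genes at the top, led by HMMR, were lower with aciclovir, and genes at the bottom, led by PIF1 and CDCA3, were lower with mercuric chloride.

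Tofacitinib lowered 4 of the 48 genes and raised 0, against 1.23% and 1.09% of all genes (2.32% in either direction). Against vehicle series 2 alone 20 were lower and 0 higher, where 9.88% and 9% of all genes were, and against vehicle series 1 alone 6 were lower and 5 higher, where 5.73% and 5.29% were. BUB1 had 29.3, 41.5 and 36.6 CPM with tofacitinib, against 56.2, 59.4 and 56.7 CPM in vehicle series 2 and 48.8, 48.1 and 53.5 CPM in vehicle series 1 (log2 -0.59, SE 0.11, adjusted p = 0.0193). BUB1B, which restrains anaphase with BUB1, had 73.1, 72.7 and 69.6 CPM with tofacitinib, against 115, 115 and 110 CPM in vehicle series 2 and 87.5, 87.6 and 90.7 CPM in vehicle series 1 (log2 -0.48, SE 0.07, adjusted p = 0.0368). CCNB1 had 92.7, 97.3 and 84.4 CPM with tofacitinib (log2 -0.39, SE 0.07, adjusted p = 0.0084). The tofacitinib libraries lay below all vehicle libraries for each of these genes. CKAP2, a microtubule-stabilizing protein, had 52.6, 62.6 and 54.8 CPM with tofacitinib, against 73.6, 76.4 and 74 CPM in vehicle series 2 and 70, 71.2 and 76.9 CPM in vehicle series 1 (log2 -0.38, SE 0.08, adjusted p = 0.0188), again without overlap. These calls rest on single libraries. BUB1B lost its call without any 1 of the 9 libraries, BUB1 and CKAP2 without tofacitinib replicate 1 or 3 or vehicle series 1 replicate 3, and CCNB1 without tofacitinib replicate 3. The count was 1 without tofacitinib replicate 1, 0 without replicate 3 and 1 without vehicle series 1 replicate 3, and it was 1 with untreated libraries in place of vehicle.

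Dexamethasone lowered 4 of the 48 genes and raised 1, against 3.58% and 4.99% of all genes (8.57% in either direction). These 5 of 48 genes called are near the share of all genes called in either direction. Against vehicle series 2 alone 22 were lower and 2 higher, where 15.2% and 15% of all genes were, and against vehicle series 1 alone 5 were lower and 7 higher, where 10.3% and 11.1% were. BUB1 had 37, 37.7 and 29.5 CPM with dexamethasone (log2 -0.63, SE 0.11, adjusted p = 0.00293) and BUB1B had 80.7, 68.9 and 65.3 CPM (log2 -0.49, SE 0.07), both below all vehicle libraries given above. CKAP2 had 60.1, 53.3 and 60.3 CPM with dexamethasone (log2 -0.35, SE 0.08), below all vehicle libraries as well. ANLN, which encodes the contractile ring scaffold anillin, had 81.7, 75 and 46.2 CPM with dexamethasone, against 111, 107 and 96.7 CPM in vehicle series 2 and 94.1, 95.7 and 89.3 CPM in vehicle series 1 (log2 -0.55, SE 0.13). AURKB had 58.9, 63.3 and 82.9 CPM with dexamethasone, against 53.4, 53.8 and 47.9 CPM in vehicle series 2 and 54.9, 48.4 and 45.7 CPM in vehicle series 1 (log2 0.43, SE 0.11, adjusted p = 0.0498). For ANLN and AURKB the groups did not overlap, but replicate 3 lay far from the other dexamethasone libraries. ANLN lost its call without dexamethasone replicate 3 or any 1 vehicle series 1 library, AURKB without dexamethasone replicate 3 or any 1 vehicle library, BUB1B without dexamethasone replicate 3, and CKAP2 without dexamethasone replicate 2 or vehicle series 1 replicate 3. The count of 5 called genes fell to 2 without dexamethasone replicate 3, to 3, 3 and 2 without vehicle series 1 replicates 1, 2 and 3, to 1 when only these 9 libraries were fitted, and to 2 with untreated libraries in place of vehicle.

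Dexamethasone was set directly against prednisolone, a glucocorticoid without its fluorine and methyl group and given at a concentration that may differ. Dexamethasone had 4 of the 48 genes lower and 2 higher, against 3.75% and 5.48% of all genes. These 6 of 48 genes called are near the share of all genes called in either direction (9.23%). BIRC5, an inhibitor of apoptosis in the passenger complex, had 157, 174 and 117 CPM with dexamethasone, against 202, 203 and 213 CPM with prednisolone (log2 -0.47, SE 0.08, adjusted p = 0.000281). The groups did not overlap for BIRC5. BUB1 (-0.38), BUB1B (-0.26) and CCNB1 (-0.25) were the others lower. CCNB1 had 97.9, 104 and 127 CPM with dexamethasone, against 128, 128 and 136 CPM with prednisolone. TPX2, an activator of AURKA, had 220, 218 and 313 CPM with dexamethasone, against 193, 198 and 199 CPM with prednisolone (log2 0.35, SE 0.09). TOP2A had 2176, 2281 and 2976 CPM with dexamethasone, against 1952, 1949 and 1970 CPM with prednisolone (log2 0.34, SE 0.08). Replicate 3 was the highest dexamethasone library for CCNB1, TPX2 and TOP2A. BIRC5 kept its call whichever of the 6 libraries was left out. TOP2A lost its call without dexamethasone replicate 3, TPX2 without that library or prednisolone replicate 1, BUB1 without dexamethasone replicate 3 or prednisolone replicate 1 or 2, BUB1B without dexamethasone replicate 2 or 3 or prednisolone replicate 1 or 3, and CCNB1 without dexamethasone replicate 1 or 2 or any 1 prednisolone library. The count of 6 was 2 without dexamethasone replicate 3, 2 without prednisolone replicate 1 and 0 when only these 6 libraries were fitted, and for 38 of the 48 genes the 95% interval lay within 0.5 on the log2 scale either way.

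Cyclosporine and tacrolimus, both calcineurin inhibitors given at concentrations that may differ, were compared with no control library between them. Of the 48 genes, 17 were higher and 3 lower with cyclosporine, against 10.9% and 9.24% of all genes (median log2 0.15, and -0.02 over all genes). MKI67 had 500, 446 and 488 CPM with cyclosporine, against 245, 238 and 220 CPM with tacrolimus (log2 1.03, SE 0.12, adjusted p = 7.17e-09). NDC80 had 76.2, 61.4 and 72.8 CPM with cyclosporine, against 44.9, 48.1 and 42.2 CPM with tacrolimus (log2 0.64, SE 0.16). CDK1 had 107, 113 and 105 CPM with cyclosporine, against 67.9, 72.7 and 68.9 CPM with tacrolimus (log2 0.63, SE 0.10). FOXM1 had 48.1, 48.3 and 47.4 CPM with cyclosporine, against 33.5, 35 and 27.1 CPM with tacrolimus (log2 0.59, SE 0.15). All 4 genes were higher in every cyclosporine library.

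AURKB had 43.4, 43.4 and 51.2 CPM with cyclosporine, against 75.6, 66 and 55 CPM with tacrolimus (log2 -0.51, SE 0.14). UBE2C had 62.9, 73.2 and 59.9 CPM with cyclosporine, against 83.5, 88.8 and 106 CPM with tacrolimus (log2 -0.50, SE 0.15). CCNB1 had 99.2, 99.6 and 106 CPM with cyclosporine, against 124, 145 and 130 CPM with tacrolimus (log2 -0.39, SE 0.08), so these genes were lower in every cyclosporine library. Of the 17 genes higher with cyclosporine, 16 (94.1%) were also higher in control series 2 than in control series 1. There they make up 59.3% of the 27 higher genes, and the comparisons share no library. Such sharing was not counted over all genes, so whether it is particular to the mitotic genes is not known. Against vehicle, cyclosporine called 0 of the 48 genes by edgeR and by DESeq2 (1 at an unadjusted p under 0.05, and 0.831% of all genes called). Against vehicle series 2 alone 0 were higher and 1 lower (1.1% and 0.294% of all genes), and against series 1 alone 20 were higher and 2 lower (12.5% and 11.6%). Whether cyclosporine acted on these genes, or shares with control series 2 whatever sets that series apart, cannot be told apart. The call of UBE2C was lost without cyclosporine replicate 1 or 3 or tacrolimus replicate 3, of AURKB without tacrolimus replicate 1, of FOXM1 without tacrolimus replicate 3, and of TOP2A without cyclosporine replicate 1 or tacrolimus replicate 3.

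The other 6 treatments called 0 of the 48 genes against both vehicle series, by edgeR and by DESeq2. At an unadjusted p under 0.05 they had 2 genes with LPS, 0 with prednisolone, 1 with tacrolimus, 1 with genistein, 0 with benzoic acid and 2 with sodium lauryl sulfate. Among all genes the share called was 7.2% with LPS (4.56% for rises, 2.64% for falls), 1.96% with prednisolone (1.33% higher), 0.0575% with tacrolimus (0.0256% higher), 0.237% with genistein, 0.032% with benzoic acid and 0.307% with sodium lauryl sulfate. The 95% interval of the mean change over both vehicle series lay within 2-fold either way for all 48 genes in each of these treatments. This interval does not cover the difference between the series. KIF11, for example, had 21, 23 and 20.1 CPM with benzoic acid. It had 45.2, 47.4 and 43.4 CPM in vehicle series 2 and 23.7, 24.1 and 22.6 CPM in vehicle series 1. The widest single values were 0.44 with LPS and -0.61 with benzoic acid.

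Read against 1 vehicle series, the same treatments gave other answers. Against series 2 alone 17 genes were lower with LPS, 23 with prednisolone, 19 with tacrolimus, 21 with genistein, 12 with benzoic acid and 25 with sodium lauryl sulfate, where 12.5%, 12.9%, 9.91%, 11.4%, 3.16% and 9.61% of all genes were lower. For tacrolimus 0 of the 48 were higher than series 2, where 8.18% of all genes were. Against series 1 alone 0 genes were lower in any of these 6 treatments, where 7.08% of all genes were with LPS and 1.59% with prednisolone. Of the 48, 8 were higher than series 1 with LPS (8.11% of all genes), 3 with benzoic acid (1.66%), 1 with genistein (0.62%), 0 with prednisolone (2.08%) and 0 with tacrolimus and sodium lauryl sulfate. The mean MKI67 level in the 11 treatments other than cyclosporine ran from 166 ± 3.52 CPM with aciclovir to 286 ± 38.9 CPM with LPS, and was 478 ± 28.2 CPM with cyclosporine, against 483 ± 5.87 and 468 ± 21.8 CPM in the vehicle and untreated libraries of series 2 and 205 ± 5.65 and 239 ± 21.0 CPM in those of series 1 (SD, n = 3 each).

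**Figure D5:**
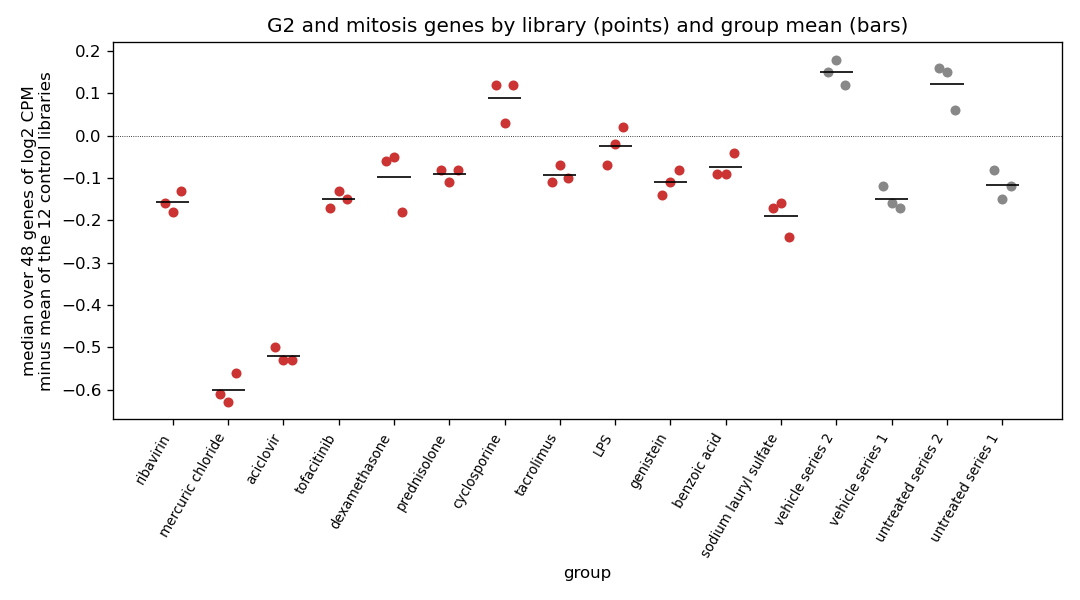
Median over the 48 genes of log2 CPM minus the mean of the 12 control libraries, for each of the 48 libraries (points; red treated, grey control) and each group mean (bars). Aciclovir libraries lie at -0.50 to -0.53 and mercuric chloride libraries at -0.56 to -0.63, and all others lie between -0.24 and 0.18.

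Across the 16 groups, 24 of the 48 genes had their lowest mean with mercuric chloride and 20 with aciclovir, and 20 had their highest mean in vehicle series 2. The highest group mean was 1.38 times the lowest for BIRC5 and 1.39 times for CKAP2, the steadiest of the genes, and 2.99 times for HMMR and 6.39 times for PIF1, the most variable. PLK1 was lowest with aciclovir (117 ± 8.59 CPM) and mercuric chloride (120 ± 7.43 CPM), which do not differ beyond their spread, and highest with sodium lauryl sulfate (225 ± 1.27 CPM, SD, n = 3 each). AURKA was lowest with aciclovir at 72.3 ± 4.09 CPM, and the next lowest group, sodium lauryl sulfate, lay at 110 ± 9.53 CPM. TOP2A was lowest with aciclovir at 1330 ± 52.9 CPM and highest in untreated series 2 at 2524 ± 79.6 CPM, a level shared within the spread by cyclosporine (2504 ± 112 CPM) and vehicle series 2 (2502 ± 11.3 CPM).

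The genes followed their common pattern to different degrees. The correlation of a gene's 16 group means with the mean pattern of the 48 genes, which includes the gene itself, was 0.97 for GTSE1, 0.96 for ASPM and 0.91 for KIF23, and 0.03 for BIRC5 and -0.26 for UBE2C. Among genes outside the 48, the most alike over the 16 group means were CKAP5 (0.94), CASC5 (0.92), KNSTRN (0.91), KIF4B (0.91), SGOL2 (0.90), FOXD4L3 (0.90), CDCA2 (0.89), KIF15 (0.89), ELP3 (0.88) and ALG6 (0.87). CASC5, SGOL2, CDCA2 and KIF15 are on the list of other G2 and mitosis genes. The 16 points share libraries and depth between genes, and these values are a description. KIF4B is a near copy of KIF4A, and its counts were a median of 12.3% of those of KIF4A.

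Some values are shared between overlapping genes or copies, since the sources do not say whether counting used strand. ERN2 counts were 79.6 to 88.9% of PLK1 counts in the 48 libraries, and HMMR-AS1 counts were 12.9 to 23.2% of HMMR counts, so reads of these genes and their antisense partners cannot be told apart. Genes with annotated pseudogenes, such as AURKA, CCNB2, CDC20, BUB1, DLGAP5, UBE2C, NEK2, MKI67 and CKAP2, may also share reads with them.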

How the data were processed

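Raw counts, as deposited, are whole numbers for each gene symbol, 1 file for each of 48 libraries, with no header. Per the submitters' processing notes, Bowtie2, bedtools and hg19 (GRCh37) were used; versions, annotation and strand use are not stated there. Each file has 25737 rows; 286 symbols on 1561 rows (1.36% of counts) were summed, which left 24462 symbols, and none of the 48 genes was among the repeated ones.

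Groups came from the labels. The test was edgeR 4.0.16 (R 4.3.3), quasi-likelihood F-test on the counts, with TMM scaling and filterByExpr (15642 genes), and all 48 libraries in 1 fit (the common biological coefficient of variation was 0.122, with 32 residual degrees of freedom). Treatments were set against either vehicle series in turn; of the p-values the larger was used if the signs matched, and 1 if they did not. Adjustment was by Benjamini-Hochberg over all genes tested, and called, rose or fell means adjusted p under 0.05. The log2 change is the mean over both series; its standard error (SE) does not cover the difference between them. Levels are CPM of TMM-scaled libraries. Within groups, 48 pairs of libraries had a chi-square of 2.18 to 45.8 times its degrees of freedom, a spread beyond counting noise. Each library was taken as 1 replicate, although this spread cannot show that libraries are separate cultures. On data simulated for the aciclovir comparison (15425 genes), recovery was 31.3% for 1.5-fold changes, 68.7% for 2-fold and 93.9% for 4-fold. There were 0 false calls among 129. Unchanged genes were simulated midway between the vehicle series, where the sign rule largely prevents a call. The rate of false calls in the real data is therefore not measured by this.

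Library values are given for CDK1, CCNB1, PLK1, AURKA, TOP2A and MKI67 and for up to 4 called genes with the largest rise and fall per comparison, with up to 10 named by change and up to 3 from each other list. A few others (KIF18A, UBE2C, PRC1 and genes near vehicle) were chosen after their values were seen. The genes, lists and tests were chosen with earlier results of these data known. Alternatives were edgeR with other size factors (RLE), upper-quartile scaling, DESeq2 1.42.0, no filter, a replicate block, a fit of the groups compared only, and each library left out. Untreated libraries in place of vehicle, and mercuric chloride against aciclovir, were added after the data were seen. Replicate numbers did not pair the libraries: in 0 of 24 treatment and vehicle sets did all same-numbered deviations correlate over 0.1. One list of markers of another cell type is not reported here.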

Additional observations from a re-analysis of the deposited data

How the results depend on the processing

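Among the genes followed singly, none that was called in the main fit or under an alternative changed direction between them. Counts of the 48 genes stayed within 1.5 times the reported count with RLE factors, DESeq2, upper-quartile scaling (mercuric chloride only) and the replicate block. With the replicate block, dexamethasone called 4 genes, aciclovir 16, mercuric chloride 28 and control series 28; same-numbered libraries had a mean correlation of -0.00395, against 0.00181 for others, and 10 of 48 libraries were closest to their own number. The fit of the groups compared only gave 30 for aciclovir, 1 for dexamethasone, 1 for genistein, 1 for sodium lauryl sulfate and 0 for dexamethasone against prednisolone, where no filter gave 3. Untreated libraries in place of vehicle gave 2 for dexamethasone and 1 for tofacitinib. The cause was not tested. Leaving out single libraries gave 13 to 15 for aciclovir, 26 to 27 for mercuric chloride, 2 to 6 for dexamethasone, 0 to 3 for tofacitinib, 24 to 29 for the control series, 15 to 21 for cyclosporine against tacrolimus, 24 to 27 for ribavirin against aciclovir, 29 to 31 for mercuric chloride against aciclovir, 2 to 7 for dexamethasone against prednisolone and 0 to 0 for the rest. Of 1712 values of single genes under an alternative, 1608 kept their call or lack of it, 102 lost the call and 2 gained it. A change of sign in a gene called in neither run was not counted. Depth and 3 libraries a group limit what can be called. For genes not called against vehicle, the interval bounds only the mean change over both series and does not cover the difference between them. For genes not called in a direct comparison, the interval of the change is the bound.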
